A study of Mus musculus with 6 samples.

Results

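YAP (encoded by Yap1), its paralog TAZ (Wwtr1), their DNA-binding partner Tead1 and 7 genes that they control or that control them (Ctgf, Cyr61, Ankrd1, Axl, Amotl2, Lats2 and Ajuba) were followed in fibroadipogenic progenitors (FAPs), the mesenchymal cells of skeletal muscle that can become fibroblasts or adipocytes. These 10 genes were chosen by name, all 10 are among the 16894 genes listed with a value, and all 10 passed the filter on low values that left 14776 genes tested. FAPs of young C57BL/6 mice had been sorted from hindlimb muscle with magnetic beads as cells with SCA-1 and without CD45, CD31 and α7-integrin, and were then grown in culture. Senescent FAPs had received 20 μM of etoposide, a topoisomerase II poison, for 48 h and then 5 days of normal medium, and non-senescent FAPs served as controls. Each group held 3 libraries, numbered as replicates 1 to 3, and the labels give no treatment for the controls. Nothing in the labels says that replicates came from separate animals, so the p-values measure the spread between these libraries, which may be technical.

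YAP and TAZ are transcriptional co-activators at the end of the Hippo pathway. In this pathway the MST kinases activate the LATS kinases, and LATS phosphorylation keeps YAP and TAZ out of the nucleus, where they would otherwise bind TEAD factors and switch on genes of matrix, growth and cell shape. Spread cells on a stiff surface usually hold them in the nucleus, and in fibroblasts they are known for their part in fibrosis. Because this control acts mainly on the proteins, the transcript levels below measure the pathway's components and targets, not the activity of YAP or TAZ.

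Libraries held between 41412179 and 59912520 reads on genes. Cdkn1a, which encodes the cell cycle inhibitor p21, was 3.58 times as high in senescent FAPs, and Mki67, a gene of proliferating cells, was at 0.0806 times its non-senescent mean. Cdkn2a, whose products include p16, is the third gene of this check and did not pass the test. It had 85.5 ± 38.2 CPM in non-senescent and 90.0 ± 23.2 CPM in senescent FAPs (SD, n = 3, limma adjusted p = 0.765). These values count all reads of the gene, whereas the paper reports higher p16 by qPCR in etoposide-treated FAPs than in controls. The FAP surface markers Pdgfra (126 to 238 and 182 to 254 CPM in non-senescent and senescent libraries) and Ly6a (220.4 to 456 and 538 to 678 CPM) were present in each library. The 10 FAP markers summed to 17000 to 36100 CPM in non-senescent and to 10100 to 15000 CPM in senescent libraries. Of these 10, 5 rose (Ly6a, Cd34, Dcn, Lum and Dpt), 1 fell (Col1a1, from a mean of 15540 to 3116 CPM) and 4 did not pass the test. Among the 4, Col3a1 had means of 10040 and 6471 CPM. Thy1, also among them, had 489, 41.3 and 61.6 CPM in non-senescent replicates 1, 2 and 3. In senescent replicates 1, 2 and 3 it had 615, 70.9 and 73.6 CPM. The summed leukocyte markers, of which 5 of 10 are listed, ranged from 10.9 to 13.8 CPM in non-senescent and from 26.4 to 32.5 CPM in senescent libraries, with the defining Ptprc, Adgre1 and Tyrobp not listed. Summed myogenic markers (5 of 10 listed, without Pax7, Myf5, Myod1, Myog or Ckm) ranged from 39.1 to 58.4 and from 39.2 to 40.5 CPM. Endothelial markers (5 of 8 listed) ranged from 30.8 to 56.0 and from 33.4 to 38.3 CPM. Mural cell markers (7 of 7 listed) ranged from 310 to 412 and from 258 to 281 CPM, and Schwann cell markers (5 of 6 listed) from 4.35 to 9.17 and from 11.1 to 13.9 CPM. Cspg4 carried most of the mural sum and fell from a mean of 288 to 167 CPM. Mcam fell too, while Rgs5 rose from a mean of 1.325 to 4.7 CPM and Notch3 from 19.8 to 61.65 CPM. Abcc9 and Myh11 did not pass the test, and Kcnj8 was too low to be tested. The part of other cells in the differences below was not tested, and in bulk RNA a smaller number of cells of one type cannot be told apart from less RNA per cell.

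TEAD factors bind the sequence GGAATG, so the promoters of the members are shown where RefSeq gives a window. It runs from 250 bases before to 50 bases after a start of the gene (GRCm38, the build that the labels name as mm10). A window was given for 8 of the 10 members, and Tead1 and Ctgf had none. GGAATG or its reverse complement CATTCC was found in a window of all 8. Of the 27025 genes with a window, 16.6% had it, as did 14.6% of the 10663 tested genes with one. Among the gene lists described further on, it was found for 9 of 27 Hippo pathway genes and 2 of 10 other YAP/TAZ targets. It was also found for 2 of 7 cell cycle genes and for 5 of 14 genes of the actin cytoskeleton and its regulators. A match is a description of the letters and no evidence of binding. The sequences below run 5′ to 3′ on the strand of the gene, with the matches in capitals. They open with the 3 members that fell in senescent FAPs and have a window, so that their sites can be compared with those of the members that rose or did not pass the test. Sites that lie in an exon of the GENCODE annotation are cut to 30 bases.

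Cyr61, chr3:145650053-145650118, minus strand: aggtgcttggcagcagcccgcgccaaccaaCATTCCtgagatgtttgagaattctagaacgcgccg
Ajuba, chr14:54577790-54577877, minus strand: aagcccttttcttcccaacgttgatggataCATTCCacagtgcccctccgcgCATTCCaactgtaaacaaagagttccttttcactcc
Amotl2, chr9:102717727-102717756, plus strand: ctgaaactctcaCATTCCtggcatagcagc
Axl, chr7:25788931-25788983, minus strand: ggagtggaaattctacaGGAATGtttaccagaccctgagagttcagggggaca
Wwtr1, chr3:57576011-57576076, minus strand: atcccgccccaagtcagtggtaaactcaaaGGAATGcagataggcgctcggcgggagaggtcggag
Lats2, chr14:57746102-57746131, minus strand: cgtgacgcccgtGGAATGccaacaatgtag
Yap1, chr9:8004702-8004767, minus strand: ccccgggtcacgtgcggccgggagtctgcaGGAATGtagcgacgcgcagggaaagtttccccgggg
Ankrd1, chr19:36120037-36120066, minus strand: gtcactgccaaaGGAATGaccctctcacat
Ankrd1, chr19:36119950-36119979, minus strand: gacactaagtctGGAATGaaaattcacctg

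The first base of the match lay at position -103 from the start of Cyr61 and at -65 from that of Amotl2. In Ajuba the matches began at -186 and -164, and in Ankrd1 at -210 and -123. In Yap1, Wwtr1 and Axl they began at -141, -136 and -233, and in Lats2 at position 5 after the start. These positions count from the start that RefSeq gives for the window. In GENCODE, Lats2 (chr14:57689662-57758388, minus strand), Amotl2 (chr9:102716672-102733418, plus strand) and Ankrd1 (chr19:36111961-36120099, minus strand) begin further upstream. Their sites thus lie inside the annotated gene, downstream of its outermost start. All 10 genes are annotated as protein-coding (GENCODE M21, GRCm38). Of the pair without a window, Ctgf lies at chr10:24595442-24598683 on the plus strand and Tead1 at chr7:112679318-112906807 on the plus strand.

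The members did not move in 1 direction. Of the 10 genes, 4 fell in senescent FAPs (Tead1, Cyr61, Amotl2 and Ajuba), 2 rose (Wwtr1 and Lats2) and 4 did not pass the test (Yap1, Ctgf, Ankrd1 and Axl), at an adjusted p under 0.05 from limma with Benjamini-Hochberg adjustment over all genes tested. Of all genes tested, 46.1% passed, with 21.8% higher and 24.3% lower, so the share of members that passed, 60%, has to be read against a transcriptome in which nearly every second gene did. No member changed by more than 1 on the log2 scale. The median log2 fold change of the members was −0.14, and that of all genes tested was −0.03. In 7 members the 3 libraries of one group lay above the 3 of the other, which held for 57.4% of all genes tested. When the recovered reads were divided by the library totals alone, the median of all genes shifted by 0.20 (log2), and 3 members were then higher and 3 lower, against 5056 genes higher and 1933 lower in all (3218 and 3592 as deposited).

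**Figure D1:**
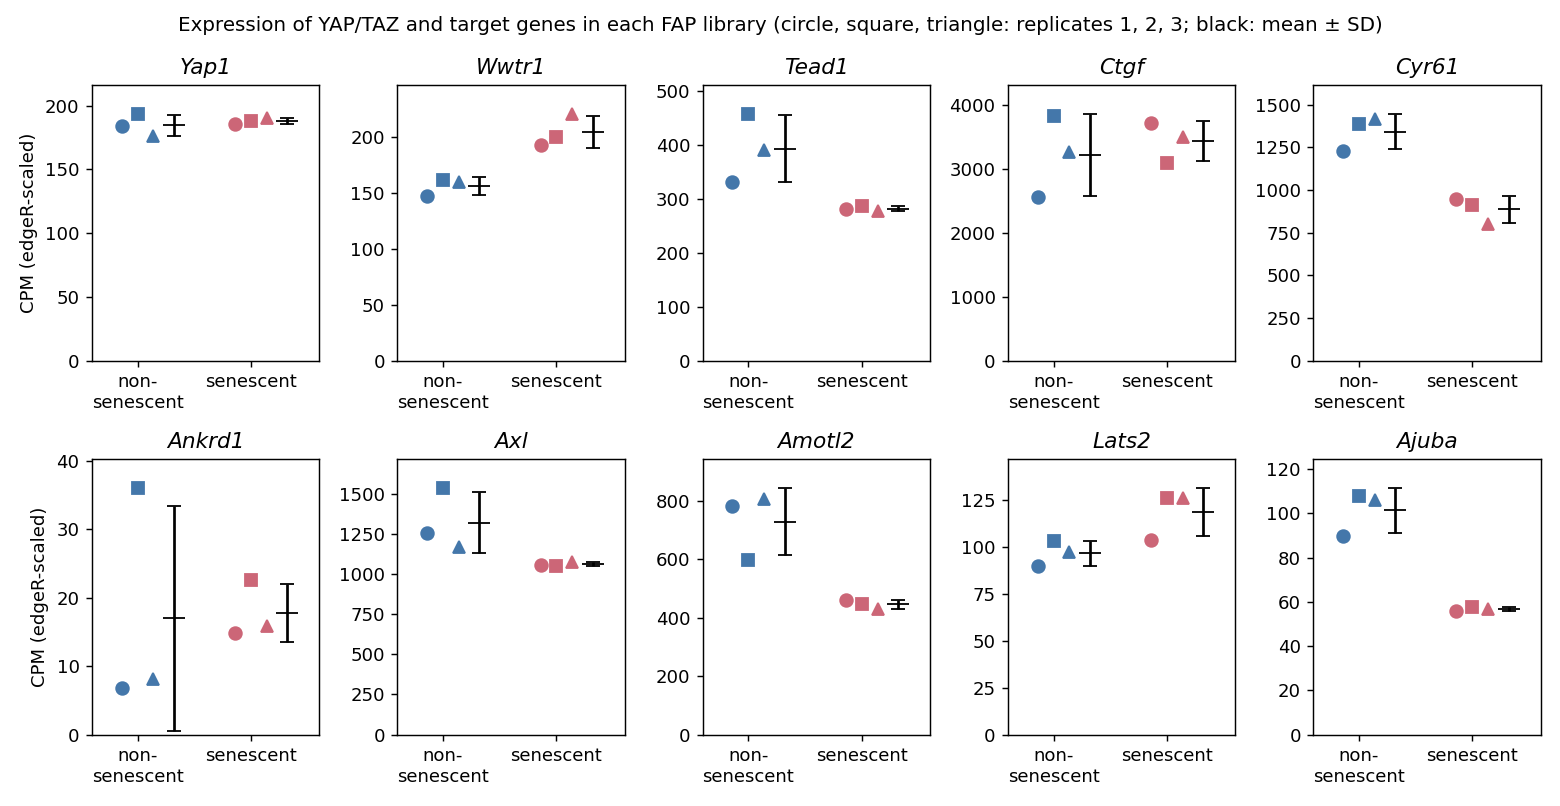
Expression of the 10 genes in each library, in edgeR-scaled CPM from 0 (vertical axes), for non-senescent and senescent FAPs (3 libraries each, with circles, squares and triangles for replicates 1, 2 and 3, and black bars for mean ± SD). Ajuba lies between 55.7 and 57.6 CPM in senescent FAPs against 89.8 to 108 CPM in non-senescent FAPs, while the groups overlap for Yap1, Ctgf and Ankrd1.

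The transcripts of the 2 co-activators behaved differently. Yap1 had 184, 193 and 176 CPM in non-senescent replicates 1, 2 and 3 and 186, 188 and 190 CPM in senescent replicates 1, 2 and 3. The groups overlapped, and each senescent value lay inside the non-senescent range. The log2 fold change was 0.03, with a 95% interval from −0.13 to 0.18 (limma, adjusted p = 0.757), which leaves out changes as large as those of the 6 members that passed. With division by library totals alone it was 0.24 and passed the test (limma, adjusted p = 0.0245), close to the shift of 0.20 in the median of all genes.

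Wwtr1, which encodes TAZ, had 147, 162 and 160 CPM in non-senescent and 193, 200.4 and 220.2 CPM in senescent FAPs. All 3 senescent libraries lay above all 3 non-senescent ones, and the mean was 30.7% higher. The log2 fold change was 0.38 (standard error 0.08, limma adjusted p = 0.0066), and it stayed past the threshold under all 17 alternatives, between 0.33 and 0.60. The 2 genes were also set against each other within each library, a ratio that no scaling factor of a library can change. There were 0.801, 0.838 and 0.909 reads of Wwtr1 per read of Yap1 in non-senescent and 1.04, 1.07 and 1.16 in senescent FAPs. The groups did not overlap (two-sided exact permutation test, p = 0.1, below which a comparison of 3 with 3 cannot go, and 0.125 when adjusted over 5 such quantities, all chosen after the values were seen).

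Tead1, which held most of the reads of the 4 TEAD genes, fell. It had 332, 456 and 391 CPM in non-senescent FAPs, a wide range, and 282, 287 and 277 CPM in senescent FAPs. The groups did not overlap, although the non-senescent libraries differed from each other by more than the lowest of them differed from the senescent ones. This was a log2 fold change of −0.47 (standard error 0.12, limma adjusted p = 0.0142). The call was lost with division by library totals alone (−0.25, adjusted p = 0.128), without senescent replicate 2 (adjusted p = 0.0502) and without senescent replicate 3 (adjusted p = 0.0559). Its paralogs Tead2, Tead3 and Tead4 fell too, with log2 fold changes of −0.45, −0.44 and −1.15 (limma adjusted p = 0.00593, 0.00482 and 0.0037). These 3 are among the 7 Hippo pathway genes that fell. With division by library totals alone only 2 Hippo pathway genes were lower, so not all 3 paralogs kept the call. Tead4 went from 9.51 ± 1.80 to 4.03 ± 0.935 CPM (SD, n = 3). The share of Tead1 in the reads of the 4 TEAD genes was 77.7 ± 3.70% in non-senescent and 78.3 ± 0.531% in senescent FAPs (SD, n = 3, exact permutation test, p = 0.8, adjusted p = 0.8).

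The 4 target genes without a role in the pathway itself did not move together, and only Cyr61 among Ctgf, Cyr61, Ankrd1 and Axl passed the test. Ctgf (now Ccn2), a secreted matricellular protein tied to fibrosis and the target most often read for YAP/TAZ, had 2564, 3830 and 3260 CPM in non-senescent and 3723, 3097 and 3496 CPM in senescent FAPs. The ranges overlapped and the log2 fold change was 0.11, with a 95% interval from −0.32 to 0.54 (limma, adjusted p = 0.652). The cultures of replicate 2 went the other way from those of replicates 1 and 3. Log2 differences between same-numbered cultures, which the labels do not describe as pairs, were 0.54, −0.31 and 0.10 for replicates 1, 2 and 3. The call was gained with quantile normalization (0.58, adjusted p = 0.0336), the only one of 17 alternatives to do so. Ctgf shares 665 bases of exon with the antisense transcript Gm15270, whose mean was 2.23 CPM in non-senescent and 1.79 CPM in senescent FAPs.

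Cyr61 (now Ccn1), the closest relative of Ctgf among the members, fell. It had 1228, 1385 and 1413 CPM in non-senescent and 949.8, 912 and 799 CPM in senescent FAPs. The groups were apart, with all 3 senescent libraries below all 3 non-senescent ones. The mean dropped by 33.9%, with a log2 fold change of −0.60 (standard error 0.11, limma adjusted p = 0.00432), and the call held under all 17 alternatives. Within a library there were 2.09, 2.77 and 2.31 reads of Ctgf per read of Cyr61 in non-senescent and 3.92, 3.40 and 4.38 in senescent FAPs, with no overlap (exact permutation test, p = 0.1, adjusted p = 0.125). Of the other CCN genes, Wisp1 (Ccn4) fell from 390.4 ± 23.9 to 181 ± 12.6 CPM (SD, n = 3, limma adjusted p = 1.84e-04). Nov (Ccn3) and Wisp2 (Ccn5) did not pass the test (limma adjusted p = 0.824 and 0.515), with intervals from −0.94 to 1.22 and from −0.98 to 0.46, and Wisp3 is not listed.

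Ankrd1, which encodes an ankyrin repeat protein abundant in stressed heart and skeletal muscle, was the lowest of the members. It had 6.87, 36.0 and 8.11 CPM in non-senescent and 14.8, 22.6 and 15.8 CPM in senescent FAPs. Non-senescent replicate 2 lay above all the other libraries, and the remaining 2 non-senescent libraries lay below all 3 senescent ones. Its log2 fold change was 0.44, with a 95% interval from −0.85 to 1.73 (limma, adjusted p = 0.544). Without non-senescent replicate 2 it was 1.17 (limma, adjusted p = 0.00191). In both groups replicate 2 was the highest. Same-numbered cultures differed by 1.06, −0.66 and 0.92 on the log2 scale, so replicate 2 was the one that was lower when senescent, as for Ctgf. Of the 4 myogenic markers tested, Acta1 fell from a mean of 27.9 to 9.34 CPM and Itga7 rose from 11.1 to 20.25 CPM (limma adjusted p = 0.00424 and 0.00771), while Des and Tnnt3 did not pass the test. Their part in the values of Ankrd1 was not tested.

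Axl, a receptor tyrosine kinase for the ligand GAS6, had 1259, 1535 and 1168 CPM in non-senescent and 1059, 1051 and 1077 CPM in senescent FAPs. The 3 senescent values lay close together and below all 3 non-senescent ones. Its log2 fold change was −0.30, with a 95% interval from −0.59 to −0.02, and did not pass after adjustment (limma, unadjusted p = 0.0402, adjusted p = 0.0777). It did not pass under any of the 17 alternatives, where it ranged from −0.39 to −0.05.

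Amotl2 and Lats2 are targets of YAP/TAZ that act back on them. Amotl2, an angiomotin that binds YAP and holds it at cell junctions, had 782, 596 and 805 CPM in non-senescent and 459, 447 and 429.7 CPM in senescent FAPs. All senescent libraries were lower, and the mean dropped by 38.8%. This was a log2 fold change of −0.695 (standard error 0.12, limma adjusted p = 0.00366) and the call held under all 17 alternatives. Its relative Amotl1 went the other way, from 142 ± 18.2 to 208 ± 18.1 CPM (SD, n = 3, log2 fold change 0.55, limma adjusted p = 0.00553). Amot had 93.8 ± 27.4 and 94.2 ± 23.1 CPM (SD, n = 3, limma adjusted p = 0.961). The ratio of Amotl2 to Amotl1 within a library was 5.96, 3.66 and 6.12 in non-senescent and 2.45, 2.02 and 2.00 in senescent FAPs, with no overlap (exact permutation test, p = 0.1, adjusted p = 0.125).

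Lats2, one of the kinases that phosphorylate YAP and TAZ, had 89.7, 103 and 97.3 CPM in non-senescent and 104, 126 and 126 CPM in senescent FAPs. The groups did not overlap, but the lowest senescent value lay less than 1 CPM above the highest non-senescent one. On the log2 scale the rise was 0.29 (standard error 0.10, limma adjusted p = 0.0448). The call was lost without non-senescent replicate 1 (adjusted p = 0.123) or 3 (0.1), without senescent replicate 2 (0.161) or 3 (0.146), and with no trend of variance (0.079). Lats2 shares 2955 bases of exon with the annotated gene Gm49361 on the same strand, so reads of the 2 could be confused. Lats1, its paralog, fell by 0.33 on the log2 scale, from 128 ± 2.51 to 102 ± 6.61 CPM (SD, n = 3, limma adjusted p = 0.00865). The ratio of Lats2 to Lats1 was 0.716, 0.790 and 0.757 in non-senescent and 0.95, 1.31 and 1.25 in senescent FAPs (exact permutation test, p = 0.1, adjusted p = 0.125).

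Ajuba, a LIM protein that restrains the LATS kinases at adherens junctions under tension, had the largest fall of the members. It had 89.8, 108 and 106 CPM in non-senescent and 55.7, 57.6 and 56.7 CPM in senescent FAPs, a clear gap with little spread on the senescent side. The fall was −0.83 on the log2 scale (standard error 0.09, limma adjusted p = 4.52e-04), and over the alternatives it lay between −0.91 and −0.62 with the call kept. Its relatives Limd1 and Wtip did not pass the test (limma adjusted p = 0.52 and 0.193), with 95% intervals from −0.10 to 0.21 and from −0.45 to 0.07.

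**Figure D2:**
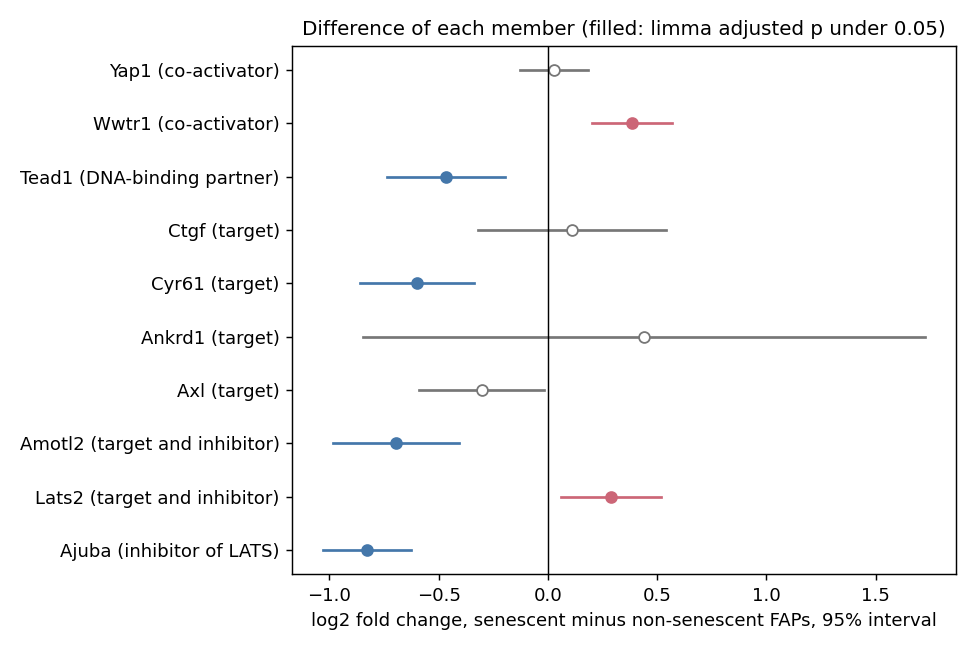
Log2 fold change of each gene with its 95% interval from limma, senescent minus non-senescent FAPs (horizontal axis), with each gene's role in brackets. Filled points passed an adjusted p under 0.05, with red for higher and blue for lower; the interval of Ankrd1 is the widest and that of Axl ends just below 0.

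**Figure D3:**
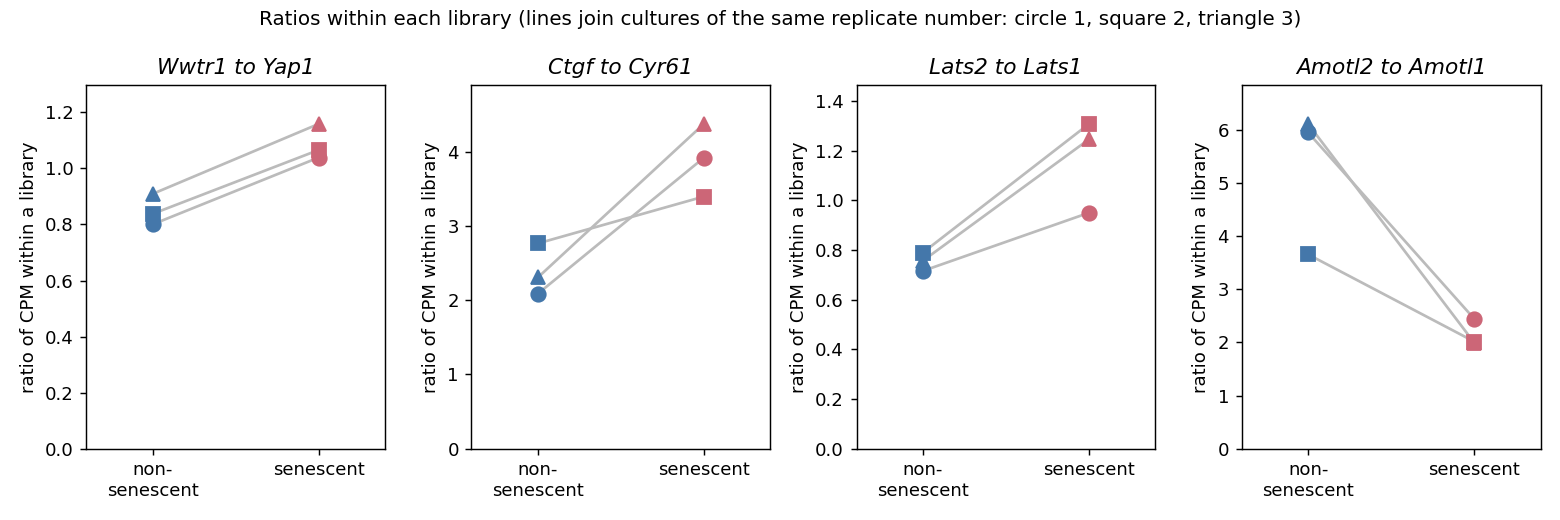
Ratio of the CPM of 2 related genes within each library (vertical axes, from 0) in non-senescent and senescent FAPs, with lines that join cultures of the same replicate number. In each of the 4 panels the 3 senescent values lie on one side of the 3 non-senescent values.

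The senescent libraries were closer to each other than the non-senescent ones for several members. The coefficient of variation of Tead1, Axl, Amotl2 and Ajuba was 15.8%, 14.5%, 15.7% and 9.91% in non-senescent and 1.77%, 1.25%, 3.34% and 1.68% in senescent FAPs. Wwtr1, Cyr61 and Lats2 went the other way, with 5.09%, 7.42% and 6.84% in non-senescent and 6.92%, 8.86% and 10.7% in senescent FAPs. With 3 libraries a group these spreads are themselves imprecise, and their difference was not tested.

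The members span a wide range of abundance. Per kilobase of exon, Ctgf had 1125 ± 222 and Cyr61 665 ± 49.4 CPM per kb in non-senescent FAPs (SD, n = 3), followed by Axl (262 ± 38.0) and Amotl2 (116 ± 18.2). Wwtr1 (32.7 ± 1.67), Tead1 (29.0 ± 4.59) and Ajuba (27.8 ± 2.75) came next. Tead1 overlapped with both of its neighbors in this order, while Wwtr1 lay above Ajuba in each library. Yap1 (19.9 ± 0.908), Lats2 (13.9 ± 0.946) and Ankrd1 (5.89 ± 5.70) were lowest. In senescent FAPs the order was Ctgf (1202 ± 111), Cyr61 (439 ± 38.9), Axl (211 ± 2.65), Amotl2 (70.8 ± 2.37) and Wwtr1 (42.8 ± 2.97 CPM per kb). Tead1 (20.8 ± 0.370) and Yap1 (20.3 ± 0.238) then lay within their spread of each other, as did Lats2 (17.0 ± 1.83) and Ajuba (15.5 ± 0.260), with Ankrd1 at 6.15 ± 1.46 CPM per kb. Reads behind a member ranged from 308, for Ankrd1 in non-senescent replicate 1, to 201438, for Ctgf in non-senescent replicate 2.

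Most other genes of the Hippo pathway, from its upstream activators to the TEAD factors, did not pass the test, which also held for most of all genes tested. Of 34 genes tested (Vgll2 is not listed), 4 rose, 7 fell (Tead2, Tead3 and Tead4 among them) and 23 did not pass. The share that passed was 32.4%, against 46.1% of all genes tested (21.8% higher and 24.3% lower). The median log2 fold change was −0.01. Division by library totals alone turned these counts into 11 higher and 2 lower. In the core kinase cassette Stk4, which encodes MST1, fell from 38.8 ± 0.862 to 29.6 ± 1.16 CPM (SD, n = 3, limma adjusted p = 0.00511), and Mob1b, a LATS cofactor, rose by 0.36 on the log2 scale (limma adjusted p = 0.0136). Stk3, Sav1 and Mob1a did not pass (limma adjusted p from 0.108 to 0.713). Of the genes upstream of the cassette, Dchs1, a giant cadherin that signals through FAT4, rose the most of any gene in these lists but Ccnd1, from 3.15 ± 0.618 to 15.0 ± 4.57 CPM (SD, n = 3, log2 fold change 2.06, limma adjusted p = 5.30e-04). Its partner Fat4 had 58.5 ± 12.3 and 60.8 ± 5.56 CPM (SD, n = 3, limma adjusted p = 0.72). Nf2, which encodes Merlin, rose by 0.21 on the log2 scale (limma adjusted p = 0.0261).

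Further targets of YAP/TAZ moved in both directions, and most did not pass the test. Of 16 other genes widely used as YAP/TAZ targets, 4 rose, 2 fell and 10 did not pass, with a median log2 fold change of 0.09. The share that passed was 37.5%, against 46.1% of all genes tested. Without senescent replicate 2, the number called was 3 instead of 6. With division by library totals alone, 7 were higher and none lower at the adjusted threshold from limma. Fjx1, a kinase of the FAT and DCHS cadherins, had 5.84 ± 0.710 and 12.8 ± 1.00 CPM (SD, n = 3, log2 fold change 1.07, limma adjusted p = 8.47e-04). F3, which encodes tissue factor, rose by 0.64 and Nuak2, a stress kinase, by 0.50 on the log2 scale (limma adjusted p = 0.00231 and 0.0112). Dock5, an activator of RAC, fell by 0.37 (limma adjusted p = 0.00851).

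Cell cycle genes that are often listed as YAP/TAZ targets fell, with 1 exception. All 11 passed the test, against 46.1% of all genes tested. Of the 11, 10 were lower and 1 was higher, against 24.3% and 21.8% of all genes tested. The median log2 fold change was −1.38. Top2a, Birc5, Mcm3, Foxm1 and Cdc6 fell, with log2 fold changes of −3.50, −2.865, −2.42, −2.27 and −2.14 (limma adjusted p from 2.11e-04 to 0.00105). Gins1, Rad18 and Myc fell with log2 fold changes of −1.38, −1.26 and −1.235 (limma adjusted p from 8.74e-04 to 0.00268). The cells had also lost Mki67, and the part of the stop in division in these falls was not tested. Ccnd1, which encodes cyclin D1, rose instead, from 78.0, 193 and 82.6 CPM in non-senescent to 409, 476 and 569.7 CPM in senescent FAPs (log2 fold change 2.15, limma adjusted p = 0.0018).

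Genes of the actin cytoskeleton, controlled by SRF and its MRTF co-activators, respond to many of the cues that YAP and TAZ respond to. The list of 16 genes held such genes and also the regulators Srf, Mkl1 and Mkl2 themselves. Its median log2 fold change was −0.79. Of the 16 genes, 14 fell (87.5%, against 24.3% of all genes tested) and 2 did not pass. The 2 were Mkl2 (MRTF-B), with a log2 fold change of 0.23 (limma adjusted p = 0.12), and Fhl2, with 0.33 (unadjusted p = 0.0349, limma adjusted p = 0.0695). At an unadjusted p under 0.05, 1 gene, Fhl2, was thus higher, and the count higher was 0 with edgeR and 1 with DESeq2. With division by library totals alone, 2 of the 16 were higher and 12 lower. Cnn1, Acta2, Tpm1 and Tagln, genes of contractile filaments, and Filip1l fell with log2 fold changes of −1.72, −1.49, −1.18, −1.01 and −1.20 (limma adjusted p from 0.00203 to 0.0033). Cnn2, a calponin, fell by 0.92 with the smallest p of the list (limma adjusted p = 5.57e-04). Acta2, which encodes smooth muscle actin, had 4213, 6067 and 5008 CPM in non-senescent and 2431, 1617 and 1459 CPM in senescent FAPs. Srf itself and Mkl1 (MRTF-A) fell, with log2 fold changes of −0.47 and −0.37 (limma adjusted p = 0.0348 and 0.016). Mural cell markers, which include the contractile gene Myh11 and moved in both directions, are given above, and their part in these falls was not tested.

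**Figure D4:**
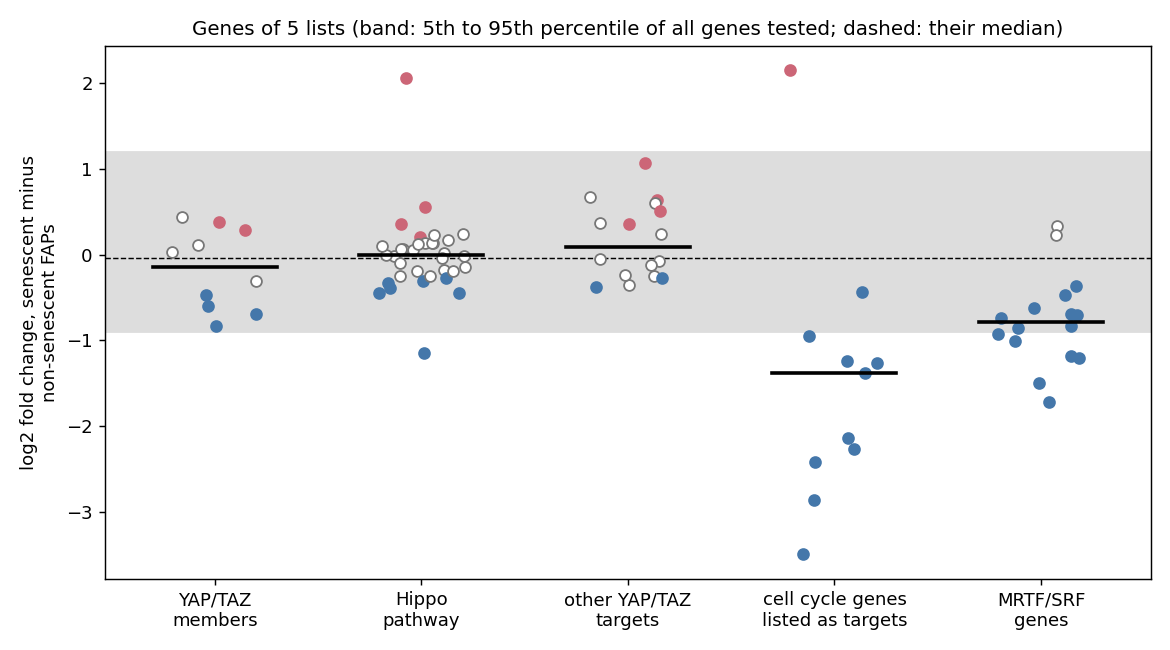
Log2 fold change (vertical axis, senescent minus non-senescent FAPs) of each gene tested in 5 lists, with thick lines at the medians. Filled points passed limma's adjusted p under 0.05; the gray band covers the 5th to 95th percentile of all genes tested (−0.90 to 1.20), and most cell cycle genes lie below it.

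The profile over the 6 libraries of each canonical target was compared with all other genes tested, after centering each gene on its own mean. The genes nearest to Ctgf were Dnajb3 and Tmod2, with a root mean square difference of 0.0338 and 0.0546 on the log2 scale. Wdr76 (0.0313) and C2cd2 (0.0331) were nearest to Cyr61. Dock8 (0.153) and F2rl2 (0.174) were nearest to Ankrd1, at larger differences than the neighbors of the other targets, but Ankrd1 itself varied most between libraries. Of these 6 genes, C2cd2, with a mean of 15.8 CPM in non-senescent and 9.90 CPM in senescent FAPs, was the most abundant. Dnajb3, Dock8 and F2rl2 were low, with means of 1.67, 1.58 and 0.90 CPM in non-senescent FAPs. With so many genes and only 6 libraries, a close profile can be found without any link, and no link was tested.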

How the data were processed

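RNA of 6 cultures (3 non-senescent and 3 senescent FAPs) was sequenced by the authors after preparation with a stranded mRNA kit. The submitters' processing notes name mm10, edgeR 3.10 and R 3.6.0. The aligner, counter, strand setting and filter are not given in the sources used here. The deposited signal is CPM computed on edgeR's effective library size. Every value was a whole multiple of 1 read, so reads were recovered for 100% of values (tolerance 1e-04 reads). The scaling factors lay between 0.917 and 0.94 in non-senescent and between 1.07 and 1.09 in senescent libraries, so they differed by group. Of 16895 lines, 1 names no gene and was left out.

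Differences were tested with limma 3.58.1 (R 4.3.3, two-sided, variance trend) on log2(CPM + 0.5), which understates changes of low genes, keeping genes that reached 0.5 CPM in 3 or more libraries. The design assumed CPM and the same test was kept. The code was tested on simulated data. edgeR 4.0.16 and DESeq2 1.42.0 on recovered reads, other scalings, filters, pseudocounts, a replicate block and leaving out each library were alternatives. Whole libraries were no repeats (chi-square per gene at least 15.1).

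Deviations from the group means of same-numbered cultures correlated across genes (r = 0.537, 0.308 and 0.207 for replicates 1, 2 and 3). Between cultures of unlike numbers r lay from −0.357 to 0.153, highest for non-senescent replicate 2 with senescent replicate 3. Same-numbered cultures were compared on this basis, which is weakest for replicate 3, and the labels do not say that they are pairs. The main test used no pairing. The replicate block changed no member's call.

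Members and gene lists were chosen with earlier results of these data known. Genes named beyond the members are paralogs, the 4 of each list with the smallest p, those of a list that passed with a log2 fold change beyond 1, the 2 nearest profiles of 3 targets, and a few named after their values were seen (Mob1b, Nf2, Fat4, Limd1, Wtip, Stk3, Sav1, Mob1a, Mkl1, Mkl2, Srf, Fhl2, Cdkn2a and marker genes). Exon lengths and overlaps come from GENCODE M21 on GRCm38 and promoters from RefSeq.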

Additional observations from a re-analysis of the deposited data

How the results depend on the processing

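Over 17 alternatives for each of the 10 members, 157 of 170 values kept their direction and side of the threshold, 8 lost the call, 3 gained it and 2 changed sign, the latter for Yap1 and Ctgf, which were not called. Leaving out each library in turn moved Yap1 between −0.00425 and 0.0612, Ctgf between −0.0435 and 0.246, and the log2 difference in the share of Tead1 among the TEAD reads between −0.0246 and 0.0441. The number of members called lay between 4 (without senescent replicate 2) and 7. The number of other YAP/TAZ targets called ranged from 3 to 7 with each library left out and was 9 with the replicate block. The number of all genes called ranged from 4039 (without senescent replicate 2) to 7226, and without senescent replicate 3 it was 4395. The replicate block changed no call of a member and gave 7523 calls among all genes, against 6810. The cause of these moves was not tested, apart from the fewer libraries. Larger changes than the shift of 0.20 by library totals depended on the scaling too, since quantile normalization moved Ctgf from 0.11 to 0.58 and Axl from −0.30 to −0.05, and Tead1 lost its call with library totals alone (−0.25).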
